A study of Mus musculus with 6 samples.

Results

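The genes described here encode the enzymes that digest macromolecules inside lysosomes, the proton pump that acidifies these organelles, and the cofactors, membrane proteins and transcription factors that go with them. They are 37 named genes, given as a list of symbols, out of 31053 gene identifiers in the tables, and all 37 were found and passed the filter on low counts. There are 19 hydrolases (10 proteases, 7 glycosidases and 2 enzymes of lipid breakdown), 2 cofactors, 4 membrane proteins, 3 transcription factors and 9 subunits of the vacuolar ATPase. Lung cells of fetal C57BL6 mice (E17) were dissociated with liberase, frozen in DMSO and then plated on a thin coat of Matrigel. All groups received the same medium for haematopoietic stem and progenitor cells, with mTPO, IL6, SCF, FGF, VEGF and Flt3, and were washed on day 3. Suspension libraries hold the cells floating in the medium on days 4, 5 and 6 of culture. Adherent libraries hold the attached cells of the same days, detached with accutase and sorted for live cells with VE-cadherin, an endothelial adhesion protein. Each fraction on each day is 1 droplet library (10x 3' v3), so the 3 days stand as the libraries of a fraction. Nothing in the labels tells whether each day had its own culture, so p-values reflect the spread among these libraries. In the contrast of the fractions that spread includes any change by day, and otherwise it may be technical.

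Lysosomes receive material through phagocytosis, endocytosis and autophagy and break it down with hydrolases that work at acid pH. The acid comes from the vacuolar ATPase, in which a cytosolic V1 part splits ATP and turns a ring in the membrane-bound V0 part that carries protons inward. The transcription factors Tfeb, Tfe3 and Mitf bind the letters CACGTG within a longer element, known as CLEAR, in the promoters of many lysosomal genes. Macrophages, including those of the lung, are rich in lysosomes, and nearly all other cells have some.

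Promoter windows from RefSeq (GRCm38.p6), running from 250 bases before to 50 bases after a transcription start, were given for 30 of the 37 genes. They are shown because the pathway's transcription factors are among the genes and because most of the genes moved together. Either strand was searched for CACGTG, which reads the same on both, for TCACGTG with CACGTGA, and for TCACGTGA, where each longer run contains the shorter ones. CACGTG stood in the windows of 11 of 30 lysosomal genes (36.7%), against 2187 of 27025 genes in all (8.09%). TCACGTG on either strand stood in 10 (33.3%), against 4.29% of all genes, and TCACGTGA in 6 (20%), against 1.12%. The longest run searched, a palindrome of 10 bases that contains TCACGTGA, stood in 0 of the 30 lysosomal genes and in 0.37% of all genes. The shares of 36.7, 33.3 and 20% are thus for shorter runs. They do not give the share of genes with a full CLEAR element. By role, CACGTG stood in the windows of 7 of 16 hydrolase genes and 2 of 5 pump genes. A gene with several windows counted when any of them held the letters. The genes with TCACGTGA were Atp6v0d1, Atp6v1a, Ctsa, Ctsd, Gla and Mcoln1, with a median log2 ratio of suspension over adherent libraries of 1.22, and the 19 with none of the letters had a median of 1.46. A match is a description of the letters and not a bound site. The windows below belong to genes with large, middling and absent differences between the fractions, and capitals mark the longest of these letter runs in each window. Ctsd (chr7:142387778-142388077, minus strand) and Atp6v1a (chr16:44139210-44139509, minus strand) hold TCACGTGA once, 99 and 132 bases before the start. The Ctsd window also holds the shorter CACGTGA near its far end, left in small letters. Lamp1 (chr8:13158911-13159210, plus strand) holds TCACGTG or CACGTGA at 4 places. Gaa (chr11:119267713-119268012, plus strand) holds TCACGTG once, and Ctss (chr3:95526536-95526835, plus strand) holds none of the letters searched.
Ctsd: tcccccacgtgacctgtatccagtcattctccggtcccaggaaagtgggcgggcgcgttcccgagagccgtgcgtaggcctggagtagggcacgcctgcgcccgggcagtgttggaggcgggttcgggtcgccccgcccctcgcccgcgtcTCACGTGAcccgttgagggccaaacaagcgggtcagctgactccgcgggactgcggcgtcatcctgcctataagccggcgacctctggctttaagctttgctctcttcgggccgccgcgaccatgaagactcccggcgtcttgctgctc
Atp6v1a: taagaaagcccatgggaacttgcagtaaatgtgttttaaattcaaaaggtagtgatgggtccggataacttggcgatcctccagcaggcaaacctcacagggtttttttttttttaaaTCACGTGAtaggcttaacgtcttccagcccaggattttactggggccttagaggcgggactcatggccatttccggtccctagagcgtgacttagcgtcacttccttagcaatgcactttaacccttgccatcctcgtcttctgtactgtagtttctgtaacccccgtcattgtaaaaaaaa
Lamp1: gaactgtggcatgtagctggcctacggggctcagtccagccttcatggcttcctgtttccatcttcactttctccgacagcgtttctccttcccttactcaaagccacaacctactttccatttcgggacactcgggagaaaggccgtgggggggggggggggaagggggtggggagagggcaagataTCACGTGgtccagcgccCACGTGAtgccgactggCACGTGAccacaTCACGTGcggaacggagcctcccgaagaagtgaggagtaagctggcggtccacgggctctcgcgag
Gaa: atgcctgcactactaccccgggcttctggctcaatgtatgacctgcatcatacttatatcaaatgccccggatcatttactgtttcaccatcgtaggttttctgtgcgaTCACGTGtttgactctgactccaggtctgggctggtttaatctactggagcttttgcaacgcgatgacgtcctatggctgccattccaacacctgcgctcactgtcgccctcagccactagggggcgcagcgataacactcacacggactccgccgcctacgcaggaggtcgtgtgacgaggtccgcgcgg
Ctss: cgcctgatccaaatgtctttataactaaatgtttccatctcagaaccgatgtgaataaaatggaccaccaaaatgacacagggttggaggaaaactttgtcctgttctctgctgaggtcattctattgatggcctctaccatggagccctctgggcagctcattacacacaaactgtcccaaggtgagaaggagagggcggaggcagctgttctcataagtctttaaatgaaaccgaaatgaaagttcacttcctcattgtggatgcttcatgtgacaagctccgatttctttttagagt

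Library totals ran from 36451255 to 57784974 gene counts, so that 3 counts in a library correspond to 0.0594 to 0.0756 CPM. Throughout, CPM are sense counts after TMM scaling of the libraries. The tables have no cell axis, so fewer cells of a type and less RNA per cell cannot be told apart. Of 10 macrophage markers 8 were higher in suspension, and their summed level was 17308 to 19332 CPM in suspension and 2856 to 7232 CPM in adherent libraries, with none at 0. Of that sum Lyz2 alone gave 13214 to 14362 CPM in suspension and 1526 to 4181 CPM in adherent libraries. All 10 neutrophil markers were higher in suspension (25463 to 77734 CPM, against 225 to 981 CPM in adherent libraries), where Cxcr2 was at 0 on day 4 in adherent cells. All 10 endothelial markers (13.3 to 20.4 CPM in suspension, against 660.3 to 1722 CPM in adherent libraries) and all 8 fibroblast markers (17.4 to 64.9 CPM, against 1480.4 to 2299 CPM) were lower. Cdh5, which encodes VE-cadherin itself, was at 0.170, 0.381 and 0.119 CPM in suspension, against 141, 226 and 79 CPM in adherent libraries. Adherent libraries thus held macrophage and fibroblast as well as endothelial transcripts after the VE-cadherin sort, and the part of these cell types in the results below was not tested.

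The contrast of the fractions sets the floating cells against the attached cells of the same days that passed the VE-cadherin sort. Detachment with accutase and the sort are described for adherent libraries only. Their part therefore cannot be told apart from that of floating or attaching. Lysosomal genes were higher in suspension across all roles: 34 of 37 passed in that direction and 0 in the other, by the edgeR quasi-likelihood test (Benjamini-Hochberg over 14912 genes). Of all genes tested 56.8% passed, 27.1% as higher and 29.7% as lower. With libraries scaled by their totals the calls over all genes split into 2904 higher and 5555 lower, against 4044 and 4423 with TMM. The median log2 ratio of the 37 genes was 1.35, against -0.002 over all genes. In 34 of them every suspension library lay above every adherent one, as in 33.4% of all genes, and in 0 of them below, as in 34.4%. Together the 37 genes took 3.39, 3.24 and 2.78% of the counts in suspension on days 4, 5 and 6, and 0.897, 1.18 and 1.66% in adherent cells. Below, 3 values of a fraction always run from day 4 to day 6. A stricter test, against a 2-fold difference, called 14 of the genes higher, and 0 lower, where 8.77% and 16.4% of all genes were.

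**Figure D1:**
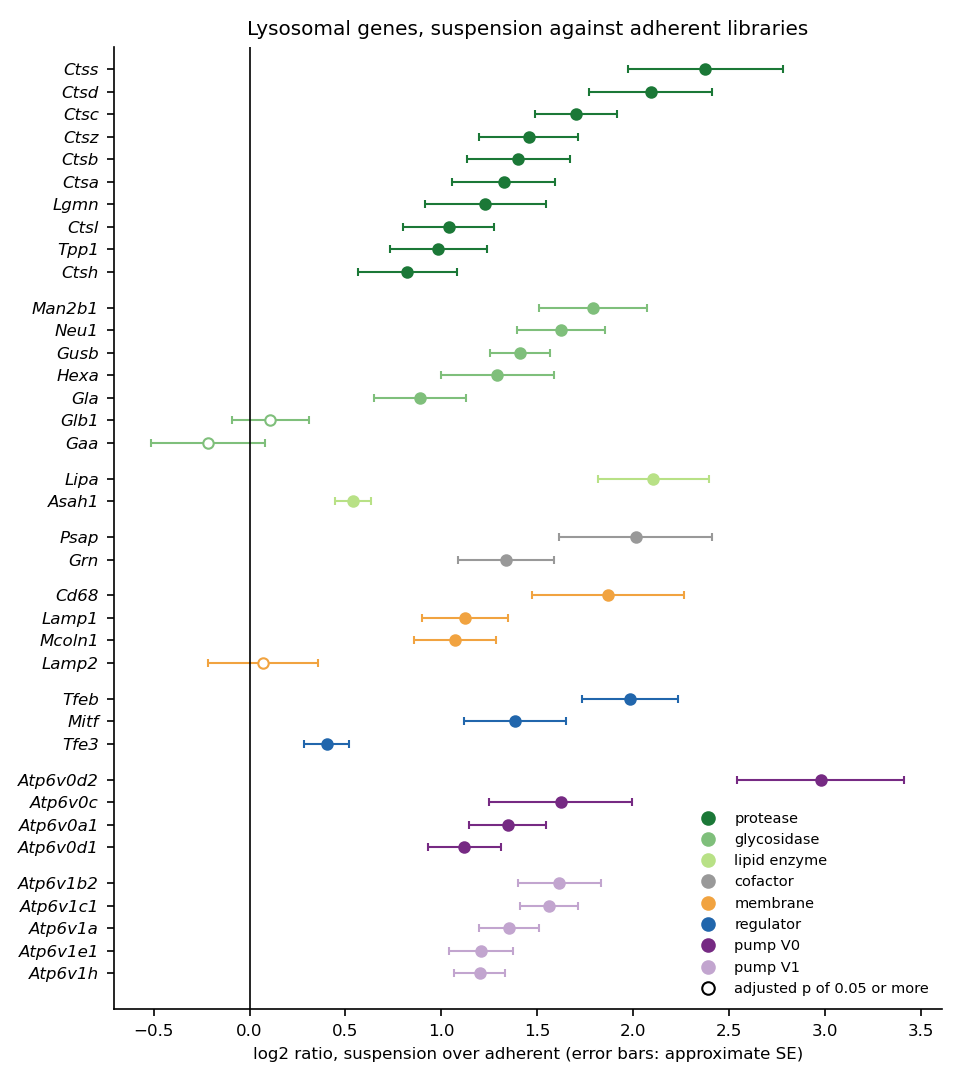
Log2 ratios of suspension over adherent libraries for the 37 genes, grouped by role, with approximate standard errors as bars and open circles for an adjusted p of 0.05 or more (3 libraries per fraction). All but Gaa lie above 0, from -0.22 for Gaa to 2.98 for Atp6v0d2, although Glb1 and Lamp2 also fall below 0 when libraries are scaled by their totals or with a filter of 10 CPM.

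All 10 proteases were higher in suspension, with log2 ratios from 0.82 to 2.38. Cathepsin S, Ctss (ENSMUSG00000038642, mm10 chromosome 3, 95526786 to 95556403), is a cysteine protease that trims the invariant chain of MHC class II in antigen-presenting cells. Ctss had 2401, 1744 and 1490.3 CPM in suspension, against 223, 282 and 582 CPM in adherent libraries. The fractions did not overlap, and the gap was widest on day 4. Its log2 ratio was 2.38 ± 0.40 (SE, adjusted p = 0.00348 by edgeR). Cathepsin D, Ctsd (ENSMUSG00000007891, mm10 chromosome 7, 142375911 to 142388038), is the main aspartic protease of lysosomes. Ctsd had 9203, 9591 and 7952 CPM in suspension, against 1317, 1862 and 3102 CPM in adherent libraries, a log2 ratio of 2.09 ± 0.32. The lowest suspension value was thus well above the highest adherent one.

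Ctsc, a dipeptidyl peptidase that activates the serine proteases of neutrophil and mast cell granules, was at 513 ± 47.7 CPM in suspension and 158 ± 43.3 CPM in adherent libraries (SD, n = 3 each). The cysteine proteases Ctsb and Ctsl were at log2 ratios of 1.40 ± 0.27 and 1.04 ± 0.24. The values of Ctsl lay closest between the fractions on day 6. Ctsl was at 5299, 3738 and 3066 CPM in suspension, against 1624, 2060.3 and 2213 CPM in adherent libraries. Ctsz, a carboxypeptidase, and Ctsa, a carboxypeptidase that also shields the enzymes of Glb1 and Neu1 from breakdown, stood at 1.46 and 1.33. Lgmn, which cuts after asparagine and matures other cathepsins, was at 1.23 ± 0.32, and Tpp1, a tripeptidyl peptidase lost in a childhood neuronal storage disease, at 0.98 ± 0.25. With adherent day 5 left out the adjusted p of Lgmn was 0.0632, and with suspension day 5 left out Tpp1 had 0.0510 by edgeR. Ctsh, an aminopeptidase that also processes surfactant proteins in alveolar type II cells, had the lowest ratio of the proteases. Ctsh had 299, 262 and 292 CPM in suspension, against 191, 99.1 and 192 CPM in adherent libraries. Its log2 ratio of 0.82 ± 0.26 (adjusted p = 0.0331 by edgeR) missed the threshold when any 1 suspension library was left out (adjusted p from 0.0847 to 0.101), and its lowest adherent value was on day 5. It also missed the threshold with libraries scaled by their totals (0.0905) and with a filter of 10 CPM (0.0688). Of 7 epithelial markers 4 were lower in suspension. Among these 7 only Sftpc, the surfactant protein C gene of type II cells, had its lowest adherent value on day 5 and similar values on days 4 and 6, as Ctsh did. Sftpc was singled out after its values were seen, and in suspension it fell by day while Ctsh did not. Sftpc was at 167, 19.6 and 6.81 CPM in suspension, against 766, 119.9 and 773 CPM in adherent libraries. Of the other epithelial markers 4 fell by day in adherent cells. The macrophage markers C1qa (440, 410 and 738 CPM) and Mrc1 (137, 122 and 325 CPM) also had their lowest adherent value on day 5. The part of epithelial cells or macrophages in the level of Ctsh was not tested.

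Of 7 glycosidases, which strip sugars from glycoproteins, glycolipids and glycogen, 5 were higher and the other 2 did not pass. Man2b1, a mannosidase, led them. Man2b1 was at 205, 231 and 233 CPM in suspension, against 40.7, 62.9 and 90 CPM in adherent libraries. Its log2 ratio was 1.79 ± 0.28 (adjusted p = 0.00262 by edgeR). Neu1 (a sialidase), Gusb (a glucuronidase) and Hexa (a subunit of hexosaminidase, which degrades gangliosides) stood at 1.62, 1.41 and 1.29. Gla, the galactosidase missing in Fabry disease, was the called one with the lowest ratio. Gla had 88.2, 76.6 and 82.7 CPM in suspension, against 29.9, 45.1 and 58.9 CPM in adherent libraries. Its adjusted p of 0.0196 became 0.0510 with suspension day 4 left out and 0.0613 with adherent day 5 left out, by edgeR.

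The glycosidases that did not pass overlapped between fractions and changed order over the days. Gaa (ENSMUSG00000025579, mm10 chromosome 11, 119267887 to 119285454), the glucosidase that breaks down glycogen and is missing in Pompe disease, was higher in suspension than in adherent cells on day 4 and lower on days 5 and 6. Gaa had 42.2, 46.2 and 41.2 CPM in suspension, against 28.2, 56.5 and 65.8 CPM in adherent libraries. Its log2 ratio over all days was -0.22 ± 0.30 (adjusted p = 0.564 by edgeR). With adherent day 4 left out it was -0.50 (adjusted p = 0.0125), and with adherent day 6 left out 0.033. Glb1, the galactosidase used as a marker of senescent cells, also changed order. Glb1 was at 52.4, 52.2 and 49.8 CPM in suspension, against 33.2, 55 and 54.9 CPM in adherent libraries. Its log2 ratio was 0.11 ± 0.20 (adjusted p = 0.670 by edgeR), and it was -0.12 with libraries scaled by their totals.

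Both enzymes of lipid breakdown and both cofactors were higher in suspension. Lipa, the acid lipase that frees cholesterol and fatty acids from lipoproteins, and Asah1, acid ceramidase, differed in size. Lipa had 516, 655 and 519.5 CPM in suspension, against 85.9, 124 and 183 CPM in adherent libraries, a log2 ratio of 2.10 ± 0.29. Asah1 had 282, 278 and 285 CPM in suspension, against 179, 202 and 199.99 CPM in adherent libraries, a log2 ratio of 0.54 ± 0.092 (adjusted p = 0.00348 by edgeR). Asah1 thus had a small ratio with little spread in either fraction. Psap encodes the precursor of the saposins, small proteins that present lipids to lysosomal enzymes. Psap had 2419, 2998 and 2815 CPM in suspension, against 361, 585 and 1095 CPM in adherent libraries. Its log2 ratio was 2.01 ± 0.40 (adjusted p = 0.00605 by edgeR), and the adherent value of day 6 was the highest of its fraction. Grn encodes progranulin, which is secreted and also delivered to lysosomes. Grn was at 815, 847 and 849 CPM in suspension, against 215, 344 and 435 CPM in adherent libraries, a log2 ratio of 1.34 ± 0.25.

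Of the 4 membrane proteins 3 were higher in suspension. Cd68, a heavily glycosylated lysosomal protein used as a macrophage stain, was at 1045, 884 and 967 CPM in suspension, against 155, 196 and 441 CPM in adherent libraries, a log2 ratio of 1.87 ± 0.40. Lamp1, a main protein of the lysosomal membrane whose window above holds 4 copies of the letters, was at 1396 ± 116 CPM in suspension and 640.2 ± 191 CPM in adherent libraries (SD, n = 3 each). Mcoln1, a calcium channel of that membrane, had few counts. Mcoln1 was at 15.5, 16.3 and 14 CPM in suspension, against 5.35, 7.28 and 9.23 CPM in adherent libraries, a log2 ratio of 1.07 ± 0.21. Lamp2 (ENSMUSG00000016534, mm10 chromosome X, 38401357 to 38456454), the relative of Lamp1 that also serves in autophagy, did not pass. Lamp2 had 326, 321 and 321 CPM in suspension, against 181, 318 and 422 CPM in adherent libraries. The suspension values hardly varied while the adherent ones ran across them. The log2 ratio was 0.070 ± 0.29 (adjusted p = 0.852 by edgeR), -0.15 with libraries scaled by their totals and -0.20 with adherent day 4 left out. On day 4 the same-day log2 ratio of Lamp2 was 0.85 and on day 6 it was -0.40.

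The 3 transcription factors were all higher in suspension, by unequal ratios. Tfeb had 20.3, 24.9 and 22.6 CPM in suspension, against 3.85, 5.94 and 7.38 CPM in adherent libraries (ENSMUSG00000023990, mm10 chromosome 17, 47737030 to 47792419). Its log2 ratio of 1.98 ± 0.25 (adjusted p = 0.00128 by edgeR) was the highest of the 3. Mitf, best known from pigment cells, mast cells and osteoclasts, came next. Mitf was at 18.1, 19.3 and 19.9 CPM in suspension, against 5.01, 6.60 and 10.3 CPM in adherent libraries, a log2 ratio of 1.38 ± 0.27. Of 6 mast cell and basophil markers 1 was called higher, and the list summed to 244, 339 and 357 CPM in suspension and 31.9, 138 and 256 CPM in adherent libraries. Mcpt8, the basophil protease of the list, made up nearly all of the adherent sum on day 4 (31.6 CPM), when Cpa3, Tpsb2, Mcpt4 and Fcer1a were at 0. Its own log2 ratio was -2.28 ± 0.93. The part of these cells in the level of Mitf was not tested. Tfe3 had 25.1, 29.3 and 32 CPM in suspension, against 21.4, 22 and 22 CPM in adherent libraries, with no overlap but a log2 ratio of only 0.40 ± 0.12 (adjusted p = 0.0244 by edgeR). Tfe3 missed the threshold when suspension day 5, suspension day 6 or adherent day 5 was left out (adjusted p = 0.101, 0.0988 and 0.0737), and also with libraries scaled by their totals (0.228) or a filter of 10 CPM (0.0749). The ratio of Tfeb to Tfe3 counts was 0.812, 0.850 and 0.706 in suspension and 0.180, 0.271 and 0.335 in adherent cells, without overlap. These are RNA levels. The factors are regulated largely by their location in the cell, which the counts do not show.

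**Figure D2:**
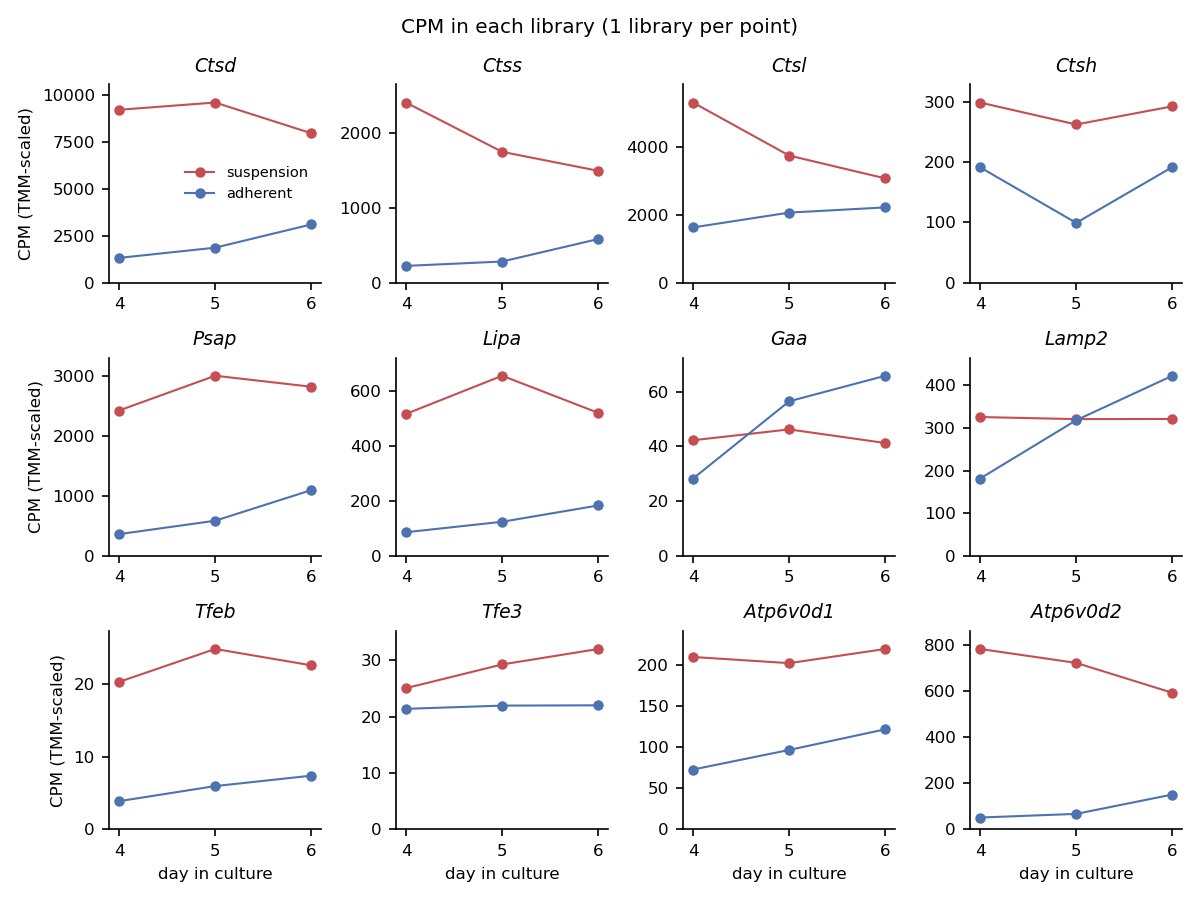
CPM (TMM-scaled) by day in culture for 12 of the genes, with 1 library per point, suspension in red and adherent in blue. Suspension lies above adherent on every day for Ctsd, Ctss, Ctsl, Ctsh, Psap, Lipa, Tfeb, Tfe3, Atp6v0d1 and Atp6v0d2, whereas the lines of Gaa and Lamp2 cross.

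All 9 proton pump subunits were higher in suspension (17 of 19 hydrolases were), with log2 ratios from 1.12 to 2.98, and in each the fractions did not overlap. In V0, the d subunit joins the rotor to the stalk and comes in a widely expressed form, Atp6v0d1, and a second form, Atp6v0d2, known from mouse osteoclasts and macrophages. Atp6v0d2 had 781, 721 and 591 CPM in suspension, against 50.1, 65.9 and 149.9 CPM in adherent libraries (ENSMUSG00000028238, mm10 chromosome 4, 19876841 to 19922605). Its log2 ratio of 2.98 ± 0.44 (adjusted p = 0.00206 by edgeR) was the highest of the 37 genes. Atp6v0d1 had 209.9, 202 and 219.7 CPM in suspension, against 72.6, 96.5 and 122 CPM in adherent libraries, a log2 ratio of 1.12 ± 0.19. The ratio of Atp6v0d2 to Atp6v0d1 counts was 3.72, 3.56 and 2.69 in suspension and 0.690, 0.683 and 1.23 in adherent cells. The highest adherent ratio, on day 6, was below every suspension ratio; this pair was singled out after its values were seen and was not tested. Of 6 osteoclast markers, Calcr had no count in suspension, Ocstamp and Dcstamp were too low to be tested, and Acp5 (3.06), Nfatc1 (1.92) and Ctsk (1.31) were higher.

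Atp6v0a1, one of the alternative a subunits that form the proton path, was at 95.9, 89.5 and 112 CPM in suspension, against 34.3, 32.2 and 50.6 CPM in adherent libraries, a log2 ratio of 1.35 ± 0.20. Atp6v0c encodes the ring subunit that carries the protons. Atp6v0c was at 6.66, 7.03 and 7.56 CPM in suspension, against 1.29, 2.04 and 3.56 CPM in adherent libraries, a log2 ratio of 1.62 ± 0.37. This gene is uncertain: it had 1242 sense counts over all libraries while 74.2% of its stranded counts were antisense, and GENCODE lists 2 processed pseudogenes of it, with which reads can be shared. In V1, Atp6v1a carries the sites that split ATP and Atp6v1b2 is its partner in the ring of alternating subunits. Atp6v1a had 350.3, 349 and 368 CPM in suspension, against 113, 138 and 167 CPM in adherent libraries, a log2 ratio of 1.35 ± 0.15. Atp6v1b2 had 236, 232 and 253 CPM in suspension, against 57, 75.7 and 103 CPM in adherent libraries, a log2 ratio of 1.61 ± 0.22. Both were thus above every adherent library on all days. Atp6v1c1 links the stalks to V0 and can let the pump come apart. Atp6v1c1 was at 178, 198 and 201 CPM in suspension, against 55.4, 62.2 and 78 CPM in adherent libraries, a log2 ratio of 1.56 ± 0.15 with the lowest adjusted p of the 37 genes (0.000629 by edgeR). Atp6v1e1 forms the outer stalks. Atp6v1e1 was at 480.2, 415 and 431 CPM in suspension, against 153, 193 and 229 CPM in adherent libraries, a log2 ratio of 1.21 ± 0.17. Atp6v1h regulates ATP splitting when V1 is free. Atp6v1h was at 101, 90.9 and 111 CPM in suspension, against 42.5, 38.9 and 50.2 CPM in adherent libraries, a log2 ratio of 1.20 ± 0.13.

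Other subunits and accessory proteins of the pump went the same way in part. Of 16 listed, 13 could be tested, 9 were higher and 2 lower, with a median log2 ratio of 0.95. Tcirg1, the a subunit of osteoclasts and many immune cells, had the highest ratio. Tcirg1 had 184, 186 and 163 CPM in suspension, against 33.5, 41.6 and 56.5 CPM in adherent libraries, a log2 ratio of 2.02 ± 0.20. Atp6v0a2, the a subunit of the Golgi, was at 0.31, so that the 3 a subunits with means above 20 CPM ranged from 0.31 through 1.35 to 2.02. The 2 that were lower had few counts. Atp6v0a4, known from kidney, was at 0.137 ± 0.179 CPM in suspension and 2.26 ± 1.12 CPM in adherent libraries (SD, n = 3 each), and Atp6v0e2 at 0.107 ± 0.0345 CPM in suspension and 1.17 ± 0.650 CPM in adherent libraries (SD, n = 3 each).

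**Figure D3:**
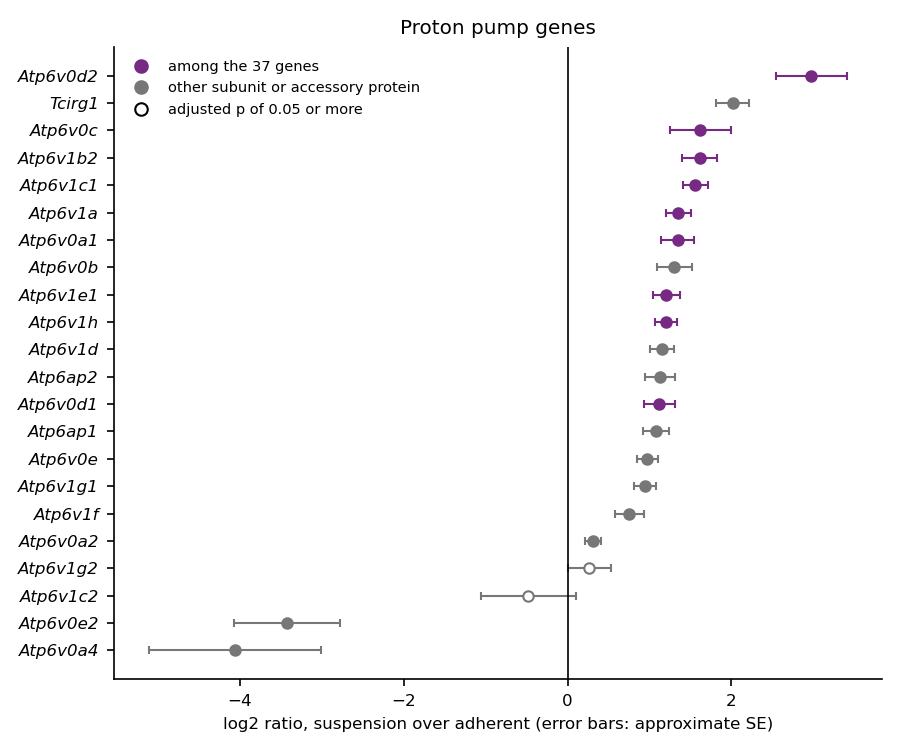
Log2 ratios of suspension over adherent libraries for all 22 tested genes of the proton pump, with approximate standard errors as bars and open circles for an adjusted p of 0.05 or more. Of these, 18 are higher and 2, Atp6v0a4 and Atp6v0e2, are lower in suspension; Atp6v0d2 and Tcirg1 have the highest ratios.

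Hydrolases and pump subunits were then set side by side. Their median log2 ratios were 1.33 and 1.35, a difference of -0.027 that was 0.025 with the day as a block and between -0.18 (adherent day 4 left out) and 0.058 (adherent day 6 left out). The stricter test against a 2-fold difference called 7 of 19 hydrolases and 4 of 9 pump subunits. Log2 ratios ran from -0.22 to 2.38 among the 19 hydrolases and from 1.12 to 2.98 among the 9 pump subunits, of which 8 lay between 1.12 and 1.62. A range over 19 genes tends to be wider than one over 9. On the wider list the other pump genes ran from -4.07 to 2.02 and the other proteases from -2.26 to 1.62, so pump genes were not uniform there. Summed over the genes, hydrolases reached 27522, 25331 and 22930.3 CPM in suspension and 6057, 8014 and 11552 CPM in adherent cells. The pump subunits summed to 2439, 2304 and 2293 CPM in suspension and 579, 704 and 953 CPM in adherent cells. The hydrolase sum was 11.3, 11 and 10 times the pump sum in suspension and 10.5, 11.4 and 12.1 times in adherent cells, so the fractions overlapped. Without Atp6v0d2 the multiples were 16.6, 16 and 13.5 in suspension and 11.4, 12.6 and 14.4 in adherent cells, again with overlap. Counts are not scaled by length, a ratio of sums weighs abundant genes most, and Ctsd alone gave 8915 of the 25261 CPM of hydrolases in suspension.

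The next comparison asks how the genes moved from day 4 to day 6 within each fraction. In adherent cells 25 of 37 rose by day and 0 fell by edgeR's test of the slope. Of all genes 11.3% passed, 7.75% rising and 3.52% falling. Among them were 14 of 19 hydrolases and 5 of 9 pump subunits. The median slope was 0.49 log2 units per day for the 37 genes, 0.51 for hydrolases, 0.29 for pump subunits and 0.046 over all genes. Psap had the steepest slope, 0.80 ± 0.083 per day, followed by Atp6v0d2 at 0.79 ± 0.11, Cd68 at 0.75 ± 0.12, Atp6v0c at 0.73 ± 0.14 and Ctss at 0.69 ± 0.11. Tfe3, Asah1 and Ctsh lay at 0.021, 0.078 and 0.001 and did not pass. In 32 of the 37 genes the adherent values were in the order of the days, as in 33.5% of all genes. The highest adherent value was 1.97 times the lowest in the median gene.

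The count of rising genes rests on few libraries, 1 per day, with 2 residual degrees of freedom. It was 4, 31 and 2 when adherent day 4, 5 or 6 was left out, in fits where 234 of 15309, 1903 of 15268 and 218 of 15359 genes in all rose. Leaving out the suspension library of day 4, 5 or 6, which share the estimate of spread, left 7, 7 and 8, where 339 of 15428, 300 of 15441 and 348 of 15469 genes in all rose. Macrophage markers rose beside the lysosomal genes in adherent cells: 7 of 10 passed, with a median slope of 0.59 and sums of 2856, 3605 and 7232 CPM. The sum of the 37 genes was 1.90, 1.97 and 1.64 times that of the macrophage markers in suspension and 2.82, 3.0 and 2.18 times in adherent cells, without overlap. Lyz2 alone gave 14362, 13214 and 13596 CPM of the macrophage sum in suspension and 1526, 2190 and 4181 CPM in adherent cells. These multiples thus rest largely on 1 marker, and they were not computed without it. Some other marker lists also had positive median slopes in adherent cells. Of neutrophil markers 3 of 10 rose (median slope 1.22, sums 225, 750.2 and 981 CPM). Of mast cell and basophil markers 1 of 6 rose (median slope 2.54), and of fibroblast markers 2 of 8 (median slope 0.41). The 10 endothelial markers had a median slope of -0.23, with 0 passing and sums of 869, 1722 and 660 CPM. Epithelial markers had a median slope of -1.11, with 4 of 7 falling. The part of these cell types in the rise was not tested.

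In suspension 0 of the genes rose and 0 fell by edgeR, against 0.0939% and 0.402% of all genes (0.496% in all). Suspension values were in the order of the days in 8 genes, as in 24.1% of all genes. At an unadjusted p under 0.05 there were 1 and 2, where 16.5% of all genes were under it in either direction. DESeq2 called 0 rising and 1 falling, where it called 185 and 601 of 14622 genes in all. The median slope was 0.005 log2 units per day, and the highest suspension value was 1.14 times the lowest in the median gene. Ctsl and Ctss had the lowest slopes, -0.40 ± 0.073 and -0.34 ± 0.11, without passing. Of the differences between the slopes, suspension minus adherent, 36 of 37 were below 0, with a median of -0.52, against -0.074 over all genes. None passed edgeR's test, where 0.516% of all genes did (0.0536% above and 0.463% below 0). The adjusted p ran from 0.0629 to 0.988, 31 had an unadjusted p under 0.05 (as had 19.6% of all genes), and DESeq2 called 24, where it called 206 and 815 of 13466 genes in all above and below 0. The count was 20 with no filter on low counts (159 and 847 of 22019 in all), 18 with adherent day 5 left out (148 and 711 of 15268) and 2 with adherent day 4 left out (18 and 73 of 15309). A slope common to both fractions passed for none of the genes by edgeR, where 0.0134% of all genes passed; 6 had an unadjusted p under 0.05, as had 20.4% of all genes, and DESeq2 called 1, where it called 729 and 728 of 14333 genes in all rising and falling.

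**Figure D4:**
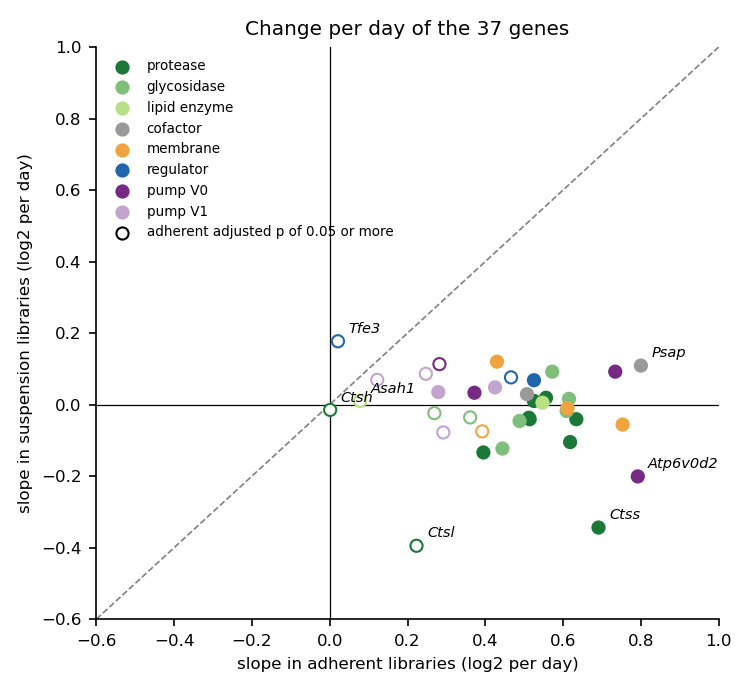
Slope per day in suspension libraries against that in adherent libraries for the 37 genes, in log2 units, with open circles where the adherent slope had an adjusted p of 0.05 or more. All points but Tfe3 lie below the dashed line of equal slopes; the adherent slopes reach 0.80 (Psap), while the suspension slopes lie between -0.40 (Ctsl) and 0.18 (Tfe3).

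The same-day ratios are given as a description, since no difference between the slopes passed its test. The ratio of suspension to adherent CPM was highest on day 4 and lowest on day 6, with day 5 between, in 34 of 37 genes, as in 32.5% of all genes. Ctsh, Asah1 and Tfe3 were the exceptions. The median same-day log2 ratio of hydrolases was 1.97, 1.40 and 0.88 on days 4, 5 and 6, and that of pump subunits 1.65, 1.46 and 1.14. Hydrolases were thus ahead of pump subunits by 0.32 on day 4 and at -0.26 relative to them on day 6. With 1 library of each fraction a day this difference has no replicate check.

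**Figure D5:**
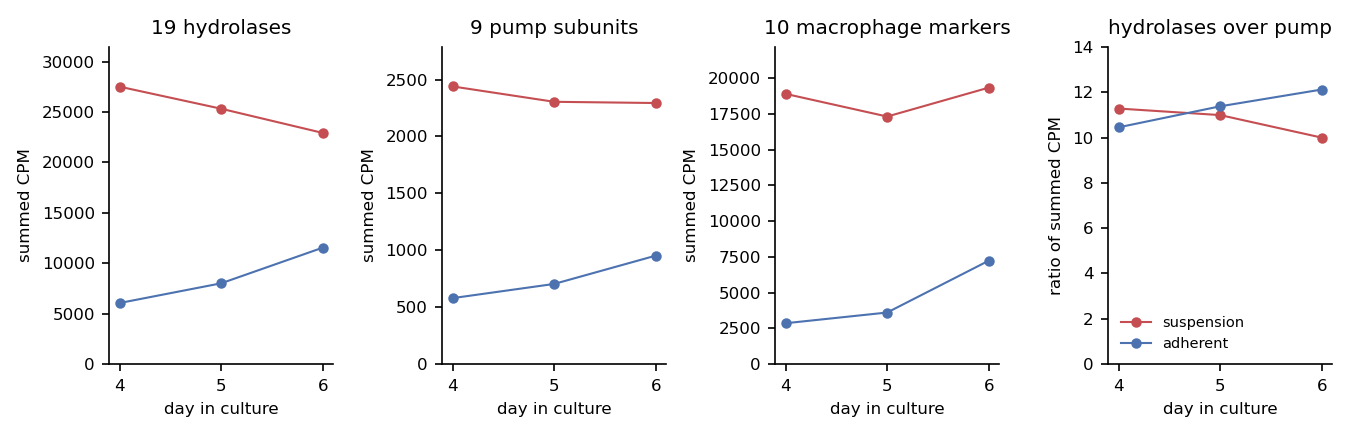
Summed CPM of the hydrolases, the pump subunits and 10 macrophage markers by day in culture, and the hydrolase sum divided by the pump sum, with 1 library per point, suspension in red and adherent in blue. The sums of adherent libraries are highest on day 6 in the first 3 panels, and the hydrolase to pump ratio lies between 10 and 12.1 in all 6 libraries.

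A wider list of other lysosomal genes, 83 with the pump genes above, gave a less uniform picture. Of 78 tested, 54 passed as higher and 7 as lower in suspension, with a median log2 ratio of 1.01. Among other glycosidases and sulfatases 14 of 19 were higher and 2 lower, with Hyal2, a hyaluronidase, at -1.06 ± 0.17. Of enzymes of lipids and nucleic acids 9 of 12 were higher. Acp5, the tartrate-resistant phosphatase of osteoclasts and macrophages, was at 248 ± 62.6 CPM in suspension and 29.8 ± 15.5 CPM in adherent libraries (SD, n = 3 each), a log2 ratio of 3.06 ± 0.45. Of 8 other proteases 3 were higher, with Dpp7, a dipeptidyl peptidase, at 1.62 ± 0.28 and Ctsk, the collagen-degrading cathepsin of osteoclasts, at 1.31 ± 0.44.

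Membrane proteins and transporters on that list were higher in 12 of 17 cases and lower in 2. Laptm5, a lysosomal protein of blood cells, was at 871 ± 75.3 CPM in suspension and 137 ± 60.3 CPM in adherent libraries (SD, n = 3 each), and its relative Laptm4a, found in most tissues, at 212 ± 11.9 CPM in suspension and 339 ± 37.1 CPM in adherent libraries (SD, n = 3 each), so that relatives went opposite ways, by 2.67 ± 0.33 and -0.68 ± 0.12 in log2. Of genes that sort enzymes to lysosomes 7 of 9 were higher and 1 lower. Sort1 (sortilin) stood at 2.67 ± 0.39. The receptors for the mannose 6-phosphate tag of lysosomal enzymes differed in sign, with M6pr at 0.96 ± 0.13 and Igf2r at -0.64 ± 0.22 (adjusted p = 0.0483 by edgeR).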

How the data were processed

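The authors deposited read counts per gene for each library, with separate columns for either strand, the sense strand and the antisense strand, and no cell axis. The values are reads and not molecular identifiers, and the labels do not state which droplets were counted. Without a cell axis no step against doublets or free RNA was possible here, and none by the authors is stated. The submitters' processing notes name bcl2fastq, Cell Ranger, STARsolo and mm10; tool versions are not recorded in the labels. The floor of 3 counts covers counting error only. The 4 summary lines (reads assigned to no single gene) were left out. On days 4, 5 and 6 they held 39, 37.6 and 38.3% of the sense column in suspension and 55.5, 51 and 48.8% in adherent libraries. This share thus differed between the fractions without overlap and fell by day in adherent libraries. Its part in the results was not tested. Gene symbols and positions were taken from GENCODE M21 on GRCm38, which is mm10.

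Sense counts were filtered with filterByExpr (14912 of 22019 genes with any count), scaled by TMM and tested with the quasi-likelihood test of edgeR 4.0.16 (R 4.3.3), with Benjamini-Hochberg adjustment over all genes and a threshold of 0.05. Models were fraction alone (4 residual degrees of freedom), fraction and day (3), and fraction by day (2). Approximate standard errors were obtained as |log2| / sqrt(F). Same-day medians used log2(CPM + 0.5). The fits of the fraction, the common slope and the difference between slopes were run on simulated counts with the same spread for all genes. Slopes within a fraction were not simulated. Alternatives included DESeq2 1.42.0.

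The genes, lists and tests were chosen with earlier results of these data known. Values in every library are given, within each role, for the called genes with the highest and lowest log2 ratio, the gene nearest 0 and genes against the sign of their role, and for all transcription factors and pump subunits; of the wider list, the genes named are the called ones with the highest and lowest ratio in each role at a mean of at least 20 CPM, of which some are not reported here. M6pr, Ctsc, Ctsl, Ctsd, Lamp1 and the lowest of the low-count pump genes were chosen as examples after their values were seen. Because the labels mark both fractions with a day, it served as a block in an alternative fit. After subtracting fraction means, suspension and adherent libraries correlated across genes at 0.338, 0.14 and 0.282 within days 4, 5 and 6, and from -0.305 to 0.0134 across days. Genes are not independent replicates.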

Additional observations from a re-analysis of the deposited data

How the results depend on the processing

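Between the fractions, 31 to 34 of the 37 genes, 15 to 17 hydrolases and 9 pump subunits were higher when 1 library was left out, and 0 to 1 lower (Gaa, with adherent day 4 left out). In these fits, of 15268 to 15469 genes in all, 2924 to 4180 were higher and 3678 to 4478 lower. Against a 2-fold difference 14 genes, 7 hydrolases and 4 pump subunits passed, and of the wider list 22 were higher and 2 lower. Of 14912 genes in all 1308 were higher and 2451 lower by that test. On the wider list, leaving out a library gave 4 to 9 lower. Counts under the other alternatives were within 1.5 times. The day as a block kept every call among the 37 genes and turned the difference of medians to 0.025; leaving out a library gave -0.18 to 0.058. Scaling by library totals moved the median of all genes to -0.24 log2. Glb1 and Lamp2 then lay at -0.12 and -0.15, and at -0.028 and -0.065 with at least 10 CPM in 3 libraries; Ctsh and Tfe3 did not pass in either. Leaving out a library gave -0.093 to 0.23 for Glb1, -0.20 to 0.37 for Lamp2 and -0.50 to 0.033 for Gaa.

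Alternatives for the slopes within a fraction and for the wider list were chosen after seeing the data. Leaving out a library gave 2 to 31 rising and 0 to 1 falling in adherent cells, and 0 to 18 different slopes. In these fits 70 to 999 genes in all fell in adherent cells. With no filter 20 slopes differed and 1 gene fell in suspension, where 605 of 22019 genes in all fell. With DESeq2 24 differed, 1 fell in suspension and 1 rose in both, with the counts over all genes given above. The cause was not tested. Slopes were not refitted with library totals or against a 2-fold difference, and a day block could not be fitted with a slope.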
